A study of Rattus norvegicus with 8 samples.

Results

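The 41 genes described here carry out mitosis. They encode the kinases that start it, the spindle and kinetochore that move the chromosomes, the checkpoint that delays anaphase, the proteases and ubiquitin enzymes that end the delay, the condensins that pack chromosomes and the scaffolds that split the cell. They were picked by gene name from this process, but earlier results of these data were known when the list was made. The counts below are therefore not those of a list made without sight of the data. All 41 were found, by symbol or gene identifier, with 45 probe sets among the 26208 of the array, which stand for 24137 genes. Where a gene had several probe sets, the one with the highest mean over all 8 arrays stands for it.

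The 8 arrays measured liver RNA of male F344/N rats. Of the samples, 4 were controls on basal diet and tap water without treatment and 4 came from rats that received thioacetamide, a liver toxicant that liver enzymes convert to its reactive form, for 28 days, with gavage given as the route for both groups. All rats were acclimatized before the study, and the sources used here give neither the dose nor the age of the rats. They also do not state that each array held the RNA of 1 animal, so each p-value reflects sample-to-sample spread, which may be technical; for short, a sample is called a rat below.

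In a growing cell population most of these transcripts are made shortly before division, in G2 and mitosis, and fall again in G1. Adult hepatocytes are largely resting, so a healthy adult liver holds little of this RNA. Hepatocytes can enter the cycle again after injury or loss of liver mass, and other liver cells can divide as well.

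Levels are log2 values made by RMA, so a difference of 1 is a 2-fold change. Background was taken per array as the 95th percentile of 1224 olfactory receptor probe sets, whose genes serve smell. It lay between 6.95 and 7.94 in controls and between 6.54 and 6.95 in treated rats, so 3 of 4 controls lay above every treated rat, and control replicate 3 had the highest background and the lowest mean correlation with its group (0.9346, with 0.9545 to 0.9592 among the remaining controls). Of 10 hepatocyte markers all were above background on every array and 0 passed the test in limma (also 0 without adjustment), with a summed signal of 416600 to 443100 in controls and 419300 to 432900 in treated rats. All of these markers but Hnf4a had group means between 15.13 and 15.73. Whether the arrays still resolve differences at such high levels was not tested, so steady values there do not show a steady hepatocyte content.

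Promoter sequence is shown first, because these genes are known to be switched together through short elements near their start sites. The cell cycle homology region, whose letters are TTTGAA, is the element at which the DREAM and MuvB complexes act, and the CCAAT box is bound by NF-Y. RefSeq windows on the GRCr8 assembly, from 250 bases before to 50 after the annotated gene start, were given for 35 of the 41 genes. TTTGAA or its reverse complement stood in 28 of these 35 windows (80.0%), against 18.2% of 27457 windows over all genes, 1 for each gene. CCAAT or its reverse complement stood in 27 of 35 (77.1%, against 37.7%), both motifs stood in 23 of 35 (65.7%, against 7.32%), and TTCGAA, a variant of the first motif that is its own reverse complement, stood in 4 (11.4%, against 1.76%).

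The 100 bases directly before the start are printed 5′ to 3′ on the gene's strand, with every match of these 3 motifs, on either strand, in capitals. The first 6 belong to genes that rose and hold TTTGAA, and the next pair to genes that rose without a match to these 3 motifs. The last pair belongs to the members that lay lower in treated rats. Other variants of TTTGAA were not searched for. The first is Cdk1 (chr20:19265193-19265292, plus strand), followed by Cdc20 (chr5:137255800-137255899, minus strand), Top2a (chr10:84473094-84473193, minus strand), Prc1 (chr1:143659381-143659480, plus strand), Ncapg (chr14:69645446-69645545, minus strand), Spag5 (chr10:63696736-63696835, plus strand), Melk (chr5:63336051-63336150, plus strand), Aurka (chr3:181560770-181560869, minus strand), Cdc25b (chr3:138860073-138860172, plus strand) and Anln (chr8:29197514-29197613, minus strand).
Cdk1: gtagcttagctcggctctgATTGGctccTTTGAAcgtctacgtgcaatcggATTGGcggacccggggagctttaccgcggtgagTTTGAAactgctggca
Cdc20: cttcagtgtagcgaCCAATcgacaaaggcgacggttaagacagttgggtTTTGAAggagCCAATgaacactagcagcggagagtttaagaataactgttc
Top2a: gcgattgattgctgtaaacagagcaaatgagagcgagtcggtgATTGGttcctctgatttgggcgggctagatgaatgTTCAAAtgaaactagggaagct
Prc1: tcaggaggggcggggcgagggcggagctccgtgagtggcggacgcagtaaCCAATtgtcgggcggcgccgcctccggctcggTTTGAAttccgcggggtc
Ncapg: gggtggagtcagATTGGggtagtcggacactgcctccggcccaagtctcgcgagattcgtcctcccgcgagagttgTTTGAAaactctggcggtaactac
Spag5: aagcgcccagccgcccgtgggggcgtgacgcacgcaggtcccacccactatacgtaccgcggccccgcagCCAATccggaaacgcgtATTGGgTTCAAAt
Melk: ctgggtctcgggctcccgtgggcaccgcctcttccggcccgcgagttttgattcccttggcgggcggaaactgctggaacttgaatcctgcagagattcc
Aurka: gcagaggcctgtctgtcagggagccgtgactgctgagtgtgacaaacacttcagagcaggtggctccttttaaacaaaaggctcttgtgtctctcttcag
Cdc25b: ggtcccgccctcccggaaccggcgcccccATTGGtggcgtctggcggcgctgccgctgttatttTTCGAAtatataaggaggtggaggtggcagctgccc
Anln: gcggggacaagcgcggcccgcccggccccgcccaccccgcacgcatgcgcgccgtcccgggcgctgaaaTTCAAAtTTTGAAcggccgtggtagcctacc

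In 26 of the 35 windows a TTTGAA match began between 100 bases before and 50 after the start. In Cdk1 the matches began at positions -72 and -16 from the start, each downstream of a CCAAT match on the opposite strand. A TTTGAA match stood in 18 of 22 windows (81.8%) of members that passed the test and in 10 of 13 (76.9%) of those that did not. Of the windows of the other mitotic genes described below 54.0% held TTTGAA, of the transcription factors of the cell cycle 6 of 12, of the anaphase-promoting complex and cohesin subunits 15.8% and of the DNA replication genes 7.14%. CCAAT stood in 64.0%, 33.3%, 47.4% and 67.9% of the windows of these lists, in the same order. A match describes letters in a window and does not show that a factor binds there.

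**Figure D1:**
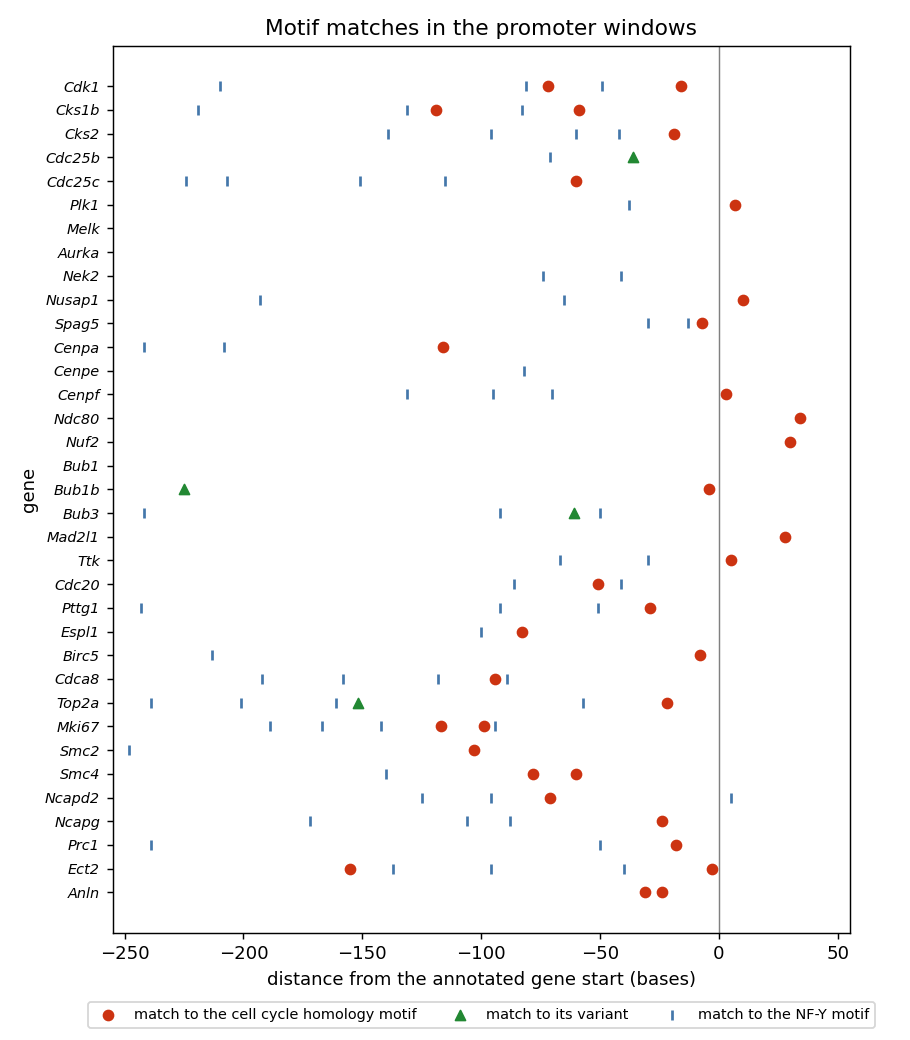
Position of motif matches in the promoter windows of the 35 members with a window, as distance from the annotated gene start in bases. Most matches to the cell cycle homology motif lie within 100 bases of the start, and Melk, Aurka and Bub1 have no match to any of the motifs searched.

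Mitotic genes rose in the treated livers, with at least 1 rise at each step of division. Of 41 genes, 27 rose and 0 fell, where 9.67% of all 24137 genes rose and 5.24% fell. By the unadjusted p of limma, 35 were higher and 1 was lower. In 31 of the 41 every treated rat lay above every control (14.2% of all genes), and in 1, Cdc25b, every treated rat lay below (7.68%). The median log2 difference was 1.21, against -0.04 over all genes. It was 1.04 with the genes under background in all controls set to their lower bound, or to 0 where no bound is given. Among the rises with at least 1 control above background, the size ran from 2.06-fold (Cdc20) to 4.16-fold (Aurkb). In whole-liver RNA, more cells that express a gene and more RNA per expressing cell cannot be told apart.

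Background moved with the groups and is therefore given beside this count. All 8 arrays lay above background for 17 of the 41, and of these 17 genes 11 rose and 0 fell. Another 10 were at or under background in all controls, so that at most a lower bound on their fold is given (none where it came to under 1), as the mean of the treated rats against the mean, per control, of the higher of the background and the measured value. Of those 10, 7 rose. Over the whole array 9466 genes lay above background on all 8 arrays, and the share of these that rose was not counted. The 9.67% given earlier is not matched to the 17 genes, because it includes 6760 genes at or under background on every array. The part of the background in these results was not tested.

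**Figure D2:**
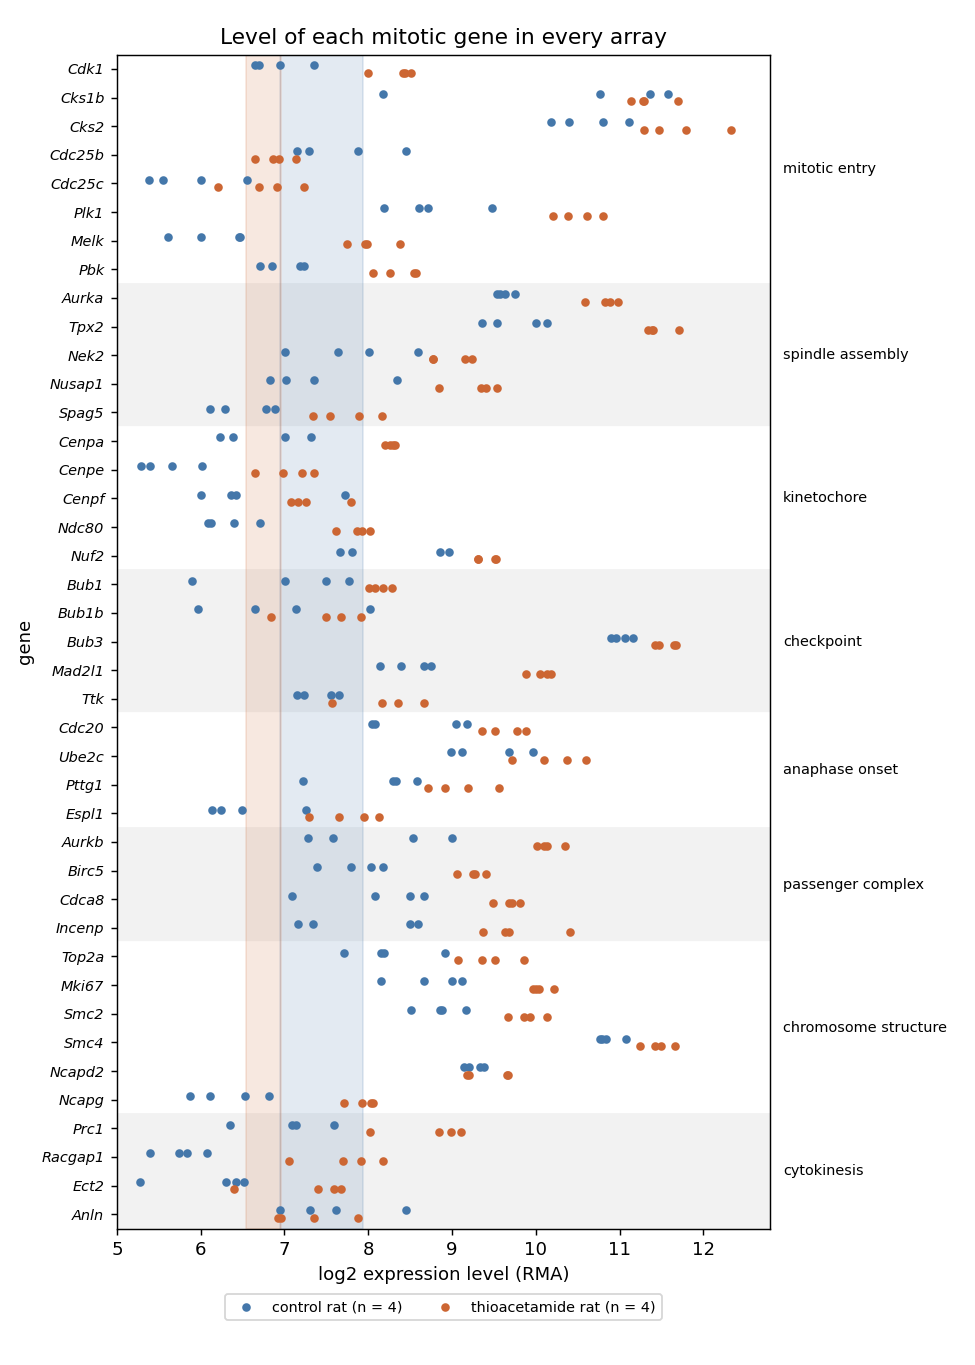
Log2 expression level of each of the 41 genes on every array, grouped by role, with controls in blue and thioacetamide rats in orange; the blue and orange bands are the ranges of the background in each group. In 31 genes the orange points all lie to the right of the blue points.

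Other proliferating cell types could carry these transcripts, so their markers were counted. Of 9 bile duct markers 2 rose (Cd24 and Epcam) and 0 fell, with a summed signal of 6916 to 9018 in controls and 9810 to 15050 in treated rats. Of 8 stellate cell markers 2 rose (Lrat and Des) and 0 fell, with sums of 11950 to 23930 and 19000 to 26510. For Des all controls were under background and 2 of 4 treated rats above it. Of the 8 differences 6 were positive, while Acta2 (-0.71 ± 0.43, adjusted p = 0.309) and Pdgfrb (-0.46 ± 0.33, adjusted p = 0.394) lay lower without passing. Macrophage markers gave 0 rises and 3 falls of 9 (sums 30600 to 52610 and 20650 to 31330), T and NK cell markers 0 rises and 3 falls of 10 (2496 to 3377 and 1301 to 2044), endothelial markers 0 rises and 1 fall of 8 (13060 to 17140 and 9960 to 13250), and the 5 measured B and plasma cell markers 0 of either (688.9 to 855.8 and 604.8 to 864.9). Cd3e, Klrb1, Cd79b, Ms4a1 and Mzb1 were under background on every array. The part of bile duct and stellate cells in the mitotic rise was not tested.

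Among the regulators of mitotic entry 5 of 8 rose. Cdk1, the kinase that drives cells into mitosis, measured 6.70, 6.65, 6.95 and 7.35 in controls 1 to 4 and 8.51, 8.44, 7.99 and 8.42 in treated rats 1 to 4. The groups did not overlap, and Cdk1 rose 2.69-fold (log2 difference 1.43 ± 0.22, adjusted p = 0.00248), with 1 of 4 controls above background. Plk1, the polo-like kinase that matures centrosomes and helps to activate Cdk1, measured 8.61, 8.71, 8.18 and 9.48 in controls 1 to 4 and 10.80, 10.39, 10.61 and 10.20 in treated rats 1 to 4. It was above background in every rat and rose 3.38-fold (1.76 ± 0.28, adjusted p = 0.00283). Melk, a kinase whose transcript marks proliferating cells, measured 6.46, 6.01, 5.61 and 6.45 in controls 1 to 4 and 7.99, 7.97, 8.38 and 7.75 in treated rats 1 to 4. All controls lay under background, and Melk was at least 1.64-fold higher (adjusted p = 0.000946). Pbk, a kinase that is active in mitosis, measured 6.71 to 7.23 in controls and 8.06 to 8.58 in treated rats and rose by 1.37 ± 0.21 (adjusted p = 0.00232), with 1 of 4 controls above background.

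Neither of the activating phosphatases of Cdk1 among the 41 genes passed the test. Their relative Cdc25a, which is outside the 41, rose 2.06-fold (1.04 ± 0.19, adjusted p = 0.00628). Cdc25b, which starts Cdk1 activation at the centrosome, measured 7.88, 7.29, 8.45 and 7.15 in controls 1 to 4 and 7.13, 6.65, 6.94 and 6.87 in treated rats 1 to 4. Every treated rat lay below every control, but the difference of -0.80 ± 0.29 did not pass (adjusted p = 0.098), and 3 of 4 arrays in each group were above background. Cdc25c, which amplifies that activation, measured 5.38 to 6.56 in controls, all under background, and 6.21 to 7.23 in treated rats, 2 of them above it, and did not pass (adjusted p = 0.0833); its bound was under 1. It passed without control replicate 3 (adjusted p = 0.0222). A second probe set of Cdc25c was under background on every array.

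Cks1b and Cks2 encode small adaptor proteins that bind cyclin-dependent kinases, and only Cks2 passed the test. Cks2 measured 10.40, 10.81, 11.11 and 10.18 in controls 1 to 4 and 11.79, 11.47, 11.30 and 12.33 in treated rats 1 to 4, with no overlap between the groups, and rose 2.14-fold (1.10 ± 0.29, adjusted p = 0.0301). Leaving out control replicate 1, 2 or 4, or thioacetamide replicate 1, 2 or 4, ended that call (adjusted p = 0.0517 to 0.0825), as did cyclic loess (0.0764), and a second probe set of Cks2 was under background on every array (-0.27 ± 0.33). The mean of both sets differed by 0.42 (adjusted p = 0.379). Cks1b measured 10.76, 11.37, 8.18 and 11.58 in controls 1 to 4 and 11.28, 11.29, 11.13 and 11.69 in treated rats 1 to 4. Control replicate 3 was far below the other controls, and the difference of 0.88 ± 0.63 (adjusted p = 0.397) came to 0.11 without it (adjusted p = 0.82).

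All 5 genes of spindle assembly rose. Aurka, the centrosomal Aurora kinase, measured 9.54, 9.57, 9.75 and 9.63 in controls 1 to 4 and 10.89, 10.99, 10.59 and 10.83 in treated rats 1 to 4. The controls lay within a narrow range, and Aurka rose 2.3-fold (1.20 ± 0.18, adjusted p = 0.00181). Tpx2, which activates Aurka on spindle microtubules, measured 9.35, 10.14, 9.54 and 10.0 in controls 1 to 4 and 11.34, 11.40, 11.71 and 11.39 in treated rats 1 to 4 and rose 3.26-fold (1.70 ± 0.22, adjusted p = 0.000993). Both partners were above background in all 8 rats, with no overlap between the groups. Nusap1, which bundles microtubules near chromosomes, measured 6.83, 7.35, 7.02 and 8.34 in controls 1 to 4 and 9.41, 9.35, 9.54 and 8.85 in treated rats 1 to 4 and rose 3.73-fold (1.90 ± 0.33, adjusted p = 0.00406), with control replicate 4 the highest control and the only one above background.

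Spag5, or astrin, which holds kinetochores to spindle fibres, measured 6.11 to 6.89 in controls, all under background, and 7.34 to 8.17 in treated rats, and was at least 1.34-fold higher (adjusted p = 0.0114). Nek2, a kinase that separates centrosomes, measured 7.01, 7.64, 8.0 and 8.60 in controls 1 to 4 and 8.77, 9.16, 9.24 and 8.77 in treated rats 1 to 4. The highest control, replicate 4, lay only slightly under the lowest treated rat. Nek2 rose by 1.17 ± 0.32 (adjusted p = 0.0349), and leaving out control replicate 1 or 2, or any treated rat, ended the call (adjusted p = 0.0505 to 0.105), as did cyclic loess (0.101) and quantile normalization (0.0529).

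At the kinetochore 4 of 5 genes rose. Cenpa, the histone variant that marks centromeres, measured 7.32, 6.39, 6.24 and 7.01 in controls 1 to 4 and 8.32, 8.26, 8.20 and 8.29 in treated rats 1 to 4. The treated rats were almost equal (SD 0.05, n = 4) while the controls spread over more than 1 log2 unit (SD 0.51, n = 4), and Cenpa rose 2.89-fold (1.53 ± 0.26, adjusted p = 0.00342) with 2 of 4 controls above background. Ndc80 and Nuf2 are partners in the complex that grips microtubules. Ndc80 measured 6.12, 6.39, 6.71 and 6.08 in controls 1 to 4 and 7.61, 8.02, 7.93 and 7.86 in treated rats 1 to 4, with all controls under background, and was at least 1.46-fold higher (adjusted p = 0.00113). Nuf2 measured 7.66, 8.86, 7.80 and 8.97 in controls 1 to 4 and 9.31, 9.53, 9.51 and 9.31 in treated rats 1 to 4, and control replicates 2 and 4 lay close to the treated rats. Nuf2 rose by 1.09 ± 0.31 (adjusted p = 0.0431), and leaving out control replicate 1 or 3, or any treated rat, ended the call (adjusted p = 0.0686 to 0.119). So did median centring (adjusted p = 0.0582), cyclic loess (0.0931) and quantile normalization (0.054).

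Cenpe, the kinetochore motor that aligns chromosomes, measured 5.66, 6.01, 5.40 and 5.29 in controls 1 to 4 and 6.99, 7.35, 7.21 and 6.65 in treated rats 1 to 4. Every treated rat lay above every control and the difference passed (adjusted p = 0.00284), but all controls and 1 treated rat were under background and the bound was under 1, so no fold is given. Cenpf, a large kinetochore protein that appears in G2, measured 6.42, 6.36, 7.73 and 6.0 in controls 1 to 4 and 7.80, 7.26, 7.16 and 7.07 in treated rats 1 to 4. Control replicate 3 lay among the treated rats, although under its own background, and Cenpf did not pass (at least 1.01-fold higher, adjusted p = 0.227). It passed without that array (adjusted p = 0.0143).

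The spindle checkpoint was the step with the fewest calls, 1 of 5 genes, although all 5 differences were positive. By the unadjusted p of limma 4 of the 5 were higher. Mad2l1, or Mad2, which holds the anaphase activator Cdc20 inactive, measured 8.39, 8.66, 8.14 and 8.75 in controls 1 to 4 and 9.89, 10.18, 10.14 and 10.05 in treated rats 1 to 4. The groups were far apart, and Mad2l1 rose 2.99-fold (1.58 ± 0.20, adjusted p = 0.00079), above background in every rat. Bub1, a kinase that recruits checkpoint proteins to kinetochores, measured 7.0, 7.77, 5.89 and 7.50 in controls 1 to 4 and 8.17, 8.28, 8.08 and 8.01 in treated rats 1 to 4. Every treated rat lay above every control, but the difference of 1.09 ± 0.36 did not pass (adjusted p = 0.0714). Control replicate 3 was the lowest, and without it the difference was 0.71 (adjusted p = 0.0619), while without control replicate 2 it was 1.34 (adjusted p = 0.0418).

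Bub3, which docks the Bub kinases, measured 11.07, 10.90, 10.96 and 11.16 in controls 1 to 4 and 11.65, 11.47, 11.43 and 11.67 in treated rats 1 to 4, with no overlap, and its small difference of 0.53 ± 0.17 did not pass (adjusted p = 0.0677). Ttk, or Mps1, the kinase that starts the checkpoint signal, measured 7.15, 7.56, 7.24 and 7.65 in controls 1 to 4 and 8.36, 8.67, 8.17 and 7.56 in treated rats 1 to 4. Thioacetamide replicate 4 lay inside the range of the controls, and the difference of 0.79 ± 0.26 (adjusted p = 0.0684) became 1.0 without that rat (adjusted p = 0.0222). Bub1b, or BubR1, which inhibits the anaphase-promoting complex, overlapped between the groups (5.97 to 8.02 in controls, 6.84 to 7.91 in treated rats) and did not pass (0.54 ± 0.41, adjusted p = 0.423), with differences of 0.21 without control replicate 1 and 0.90 without control replicate 4. Whether the checkpoint genes differ from the other groups of members was not tested.

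Of the 4 genes of anaphase onset 2 rose. Cdc20, the activator of the anaphase-promoting complex, measured 8.09, 8.04, 9.18 and 9.05 in controls 1 to 4 and 9.88, 9.36, 9.52 and 9.77 in treated rats 1 to 4. Control replicates 3 and 4 lay about 1 log2 unit above the other controls, and Cdc20 rose by 1.04 ± 0.30 (adjusted p = 0.0433). The call ended when control replicate 1 or 2, or any treated rat, was left out (adjusted p = 0.078 to 0.121), and under every scaling tried (differences 0.98 after median centring, 0.79 after cyclic loess and 0.94 after quantile normalization). Espl1, or separase, the protease that cuts cohesin, measured 6.14, 7.25, 6.50 and 6.24 in controls 1 to 4 and 7.95, 7.65, 7.29 and 8.13 in treated rats 1 to 4. All controls were under background and the highest of them lay just below the lowest treated rat. Espl1 was at least 1.36-fold higher (adjusted p = 0.0194), and leaving out control replicate 1 or treated rat 1 or 2 ended the call (adjusted p = 0.0514 to 0.0637).

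Pttg1, or securin, the inhibitor of separase, measured 7.23, 8.34, 8.58 and 8.29 in controls 1 to 4 and 9.19, 8.92, 8.72 and 9.56 in treated rats 1 to 4, with no overlap. Its difference of 0.99 ± 0.32 did not pass (adjusted p = 0.0639), and it passed without control replicate 3 (1.15, adjusted p = 0.0379). Ube2c, the ubiquitin-conjugating enzyme that serves the anaphase-promoting complex, measured 8.99 to 9.97 in controls and 9.71 to 10.60 in treated rats and did not pass (0.76 ± 0.28, adjusted p = 0.103).

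All 4 subunits of the chromosomal passenger complex rose. This complex corrects faulty attachments of chromosomes and guides cytokinesis. Aurkb, its kinase, measured 7.57, 8.53, 7.27 and 9.0 in controls 1 to 4 and 10.35, 10.13, 10.02 and 10.09 in treated rats 1 to 4. Controls spread widely (SD 0.81, n = 4) below a tight group of treated rats (SD 0.14, n = 4), and Aurkb rose 4.16-fold (2.05 ± 0.35, adjusted p = 0.00411), the largest measured difference among the 41 genes. Incenp, the scaffold, measured 7.34, 8.59, 8.50 and 7.17 in controls 1 to 4 and 9.64, 9.69, 9.38 and 10.41 in treated rats 1 to 4 and rose 3.67-fold (1.88 ± 0.37, adjusted p = 0.00841). Here the controls fell into a higher pair, replicates 2 and 3, and a lower pair, replicates 1 and 4, all 4 above background.

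Birc5, or survivin, which brings the complex to centromeres, measured 7.39, 8.03, 7.80 and 8.18 in controls 1 to 4 and 9.25, 9.41, 9.06 and 9.28 in treated rats 1 to 4 and rose 2.64-fold (1.40 ± 0.21, adjusted p = 0.00227). Cdca8, or borealin, measured 8.09, 8.50, 7.09 and 8.66 in controls 1 to 4 and 9.49, 9.72, 9.68 and 9.82 in treated rats 1 to 4 and rose 3.02-fold (1.59 ± 0.32, adjusted p = 0.00915), with control replicate 3 the lowest. In neither gene did the groups overlap, and for both, as for Aurkb, 3 of 4 controls were above background. These 4 calls held in every one of the 17 alternative fits.

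Genes of chromosome structure rose in 4 of 6 cases. Top2a, the topoisomerase that untangles sister chromatids, measured 7.71, 8.18, 8.15 and 8.92 in controls 1 to 4 and 9.86, 9.36, 9.52 and 9.08 in treated rats 1 to 4. It rose 2.32-fold (1.21 ± 0.28, adjusted p = 0.0175), and the lowest treated rat, replicate 4, lay only slightly above control replicate 4. Without thioacetamide replicate 1 or replicate 3 it did not pass (adjusted p = 0.0598 and 0.0505), nor after cyclic loess (0.0527). Mki67, which coats mitotic chromosomes as the Ki-67 antigen, measured 8.16, 9.12, 8.66 and 9.0 in controls 1 to 4 and 10.03, 9.97, 10.0 and 10.22 in treated rats 1 to 4. Every rat was above background, the groups lay apart, and Mki67 rose by 1.32 ± 0.24 (adjusted p = 0.00488).

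Of the 4 condensin genes 2 rose. Smc2, an ATPase shared by both condensins, measured 8.86, 8.51, 8.88 and 9.17 in controls 1 to 4 and 9.67, 10.14, 9.94 and 9.86 in treated rats 1 to 4 and rose 2.06-fold (1.04 ± 0.21, adjusted p = 0.00808). Its partner Smc4 measured 10.84, 11.07, 10.79 and 10.77 in controls 1 to 4 and 11.24, 11.66, 11.43 and 11.49 in treated rats 1 to 4, with no overlap, but its difference of 0.59 ± 0.18 did not pass (adjusted p = 0.0569). A second probe set of Smc4, with 1 array above background, gave -0.24 ± 0.32. Ncapg, a subunit of condensin I, measured 6.11, 6.81, 5.87 and 6.52 in controls 1 to 4 and 8.06, 8.04, 7.71 and 7.92 in treated rats 1 to 4. It was under background in all controls and at least 1.54-fold higher in treated rats (adjusted p = 0.00181). Ncapd2, another subunit of condensin I, measured 9.14 to 9.38 in controls and 9.18 to 9.67 in treated rats and differed by 0.17 ± 0.20 (adjusted p = 0.618), and by -0.08 after cyclic loess.

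Cytokinesis genes rose in 2 of 4 cases. Prc1, which bundles the microtubules between separating chromosomes, measured 7.60, 7.13, 6.34 and 7.08 in controls 1 to 4 and 8.85, 8.99, 9.11 and 8.02 in treated rats 1 to 4. It rose 3.26-fold (1.70 ± 0.32, adjusted p = 0.00635), with 2 of 4 controls above background, and its second probe set rose by 1.39 ± 0.21 (adjusted p = 0.00196). Racgap1, a subunit of centralspindlin, measured 5.84, 5.74, 5.39 and 6.08 in controls 1 to 4 and 7.91, 8.18, 7.69 and 7.05 in treated rats 1 to 4. Thioacetamide replicate 4 was the lowest treated rat, all controls were under background, and Racgap1 was at least 1.32-fold higher (adjusted p = 0.00125).

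Ect2, the exchange factor that centralspindlin recruits to start the furrow, measured 6.42, 6.52, 5.27 and 6.31 in controls 1 to 4 and 7.67, 7.59, 7.40 and 6.40 in treated rats 1 to 4. Controls were all under background, thioacetamide replicate 4 lay among them, and Ect2 did not pass (adjusted p = 0.0602). Without that rat it passed (adjusted p = 0.0206). With all controls under background and a bound under 1, no size is given for Ect2. Anln, or anillin, the scaffold of the contractile ring, measured 7.31, 6.95, 7.61 and 8.45 in controls 1 to 4 and 7.35, 7.88, 6.92 and 6.96 in treated rats 1 to 4. The groups overlapped, and the difference of -0.30 ± 0.34 did not pass (adjusted p = 0.6). It was -0.013 without control replicate 4, the highest control, and between -0.51 and -0.18 without any other single array that moved it by over 1.5 times (control 2 and treated rats 2, 3 and 4).

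**Figure D3:**
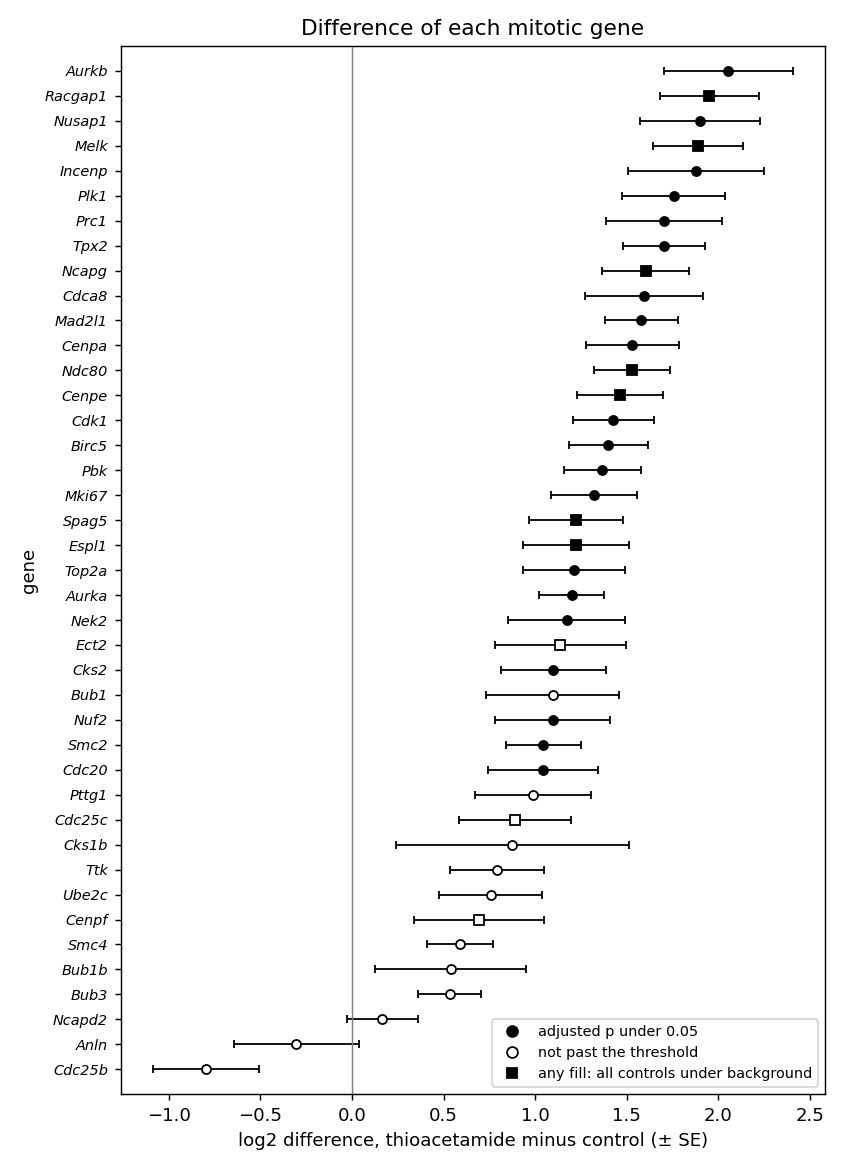
Log2 difference (thioacetamide minus control, ± SE of the fit, n = 4 rats a group) of the 41 genes in order of size, filled where the adjusted p was under 0.05 and square where all controls were under background, so that the plotted value is a measured difference and not a fold. The differences run from -0.80 (Cdc25b) to 2.05 (Aurkb), and 39 of 41 are positive.

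The typical level of the members was higher in each treated rat than in each control. The median deviation of the 41 genes from their own mean over all arrays was -0.82, -0.47, -0.70 and -0.32 in controls 1 to 4 and 0.67, 0.76, 0.54 and 0.56 in treated rats 1 to 4. Of the controls, replicate 4 was the highest for 18 of the 41 genes and replicate 3 the lowest for 15. Of the treated rats, replicate 2 was the highest for 16 and replicates 3 and 4 the lowest for 16 and 15. The median SD of a member was 0.50 in controls and 0.25 in treated rats, against 0.40 and 0.29 over all genes, and the treated SD was the smaller one in 33 of 41 members and in 16091 of 24137 genes. The background of the controls, which also spread more between arrays than that of the treated rats, stands beside this difference in spread, and its part was not tested.

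**Figure D4:**
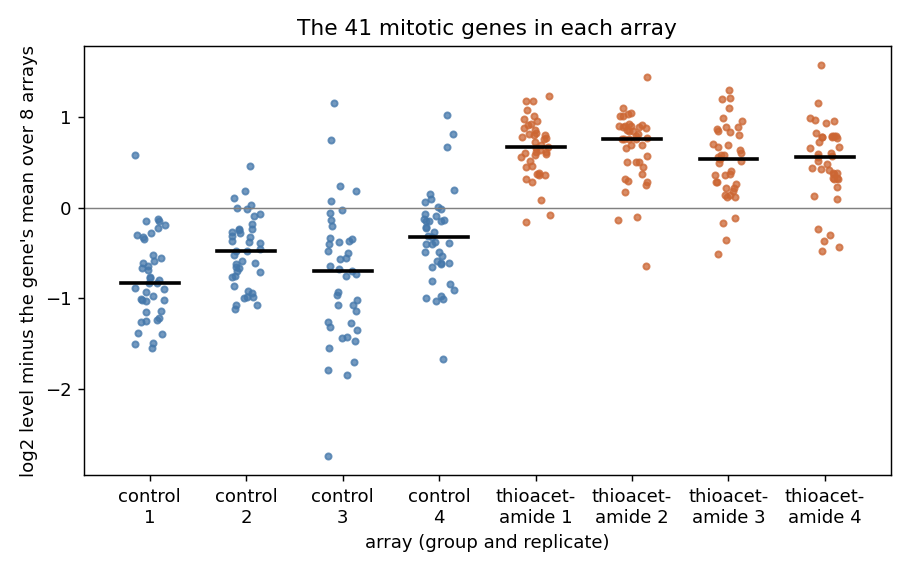
Deviation of each of the 41 genes from its mean over all 8 arrays, in log2 units, by array; points are genes and black bars are medians. All 4 controls have negative medians (-0.82 to -0.32) and all 4 treated rats positive ones (0.54 to 0.76).

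The count kept its direction throughout. With 1 array left out, 21 to 29 members rose and 0 fell. Without control replicate 3, the array that correlated least with its group, it was 29, and without control replicates 2 and 3 and thioacetamide replicate 4 together it was also 29. Cyclic loess gave 22 rises and 0 falls, while over all probe sets it gave 1998 rises and 1736 falls in place of 2480 and 1347. Of the 27 genes that rose, 21 kept the threshold in every alternative that tested them (the filter on dim probe sets left out Cenpe), and the 6 that did not were Cdc20, Nuf2, Nek2, Cks2, Espl1 and Top2a.

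Other genes of mitosis outside the 41 moved in the same direction. Of 59 measured genes 36 rose and 0 fell (without adjustment, 43 and 0), with a median difference of 1.12. The median was 0.68 with the 25 genes under background in all controls set to their bound, or to 0 where they have none. Gtse1, a microtubule-binding protein of G2 that also restrains p53, measured 7.21, 7.32, 6.85 and 7.62 in controls 1 to 4 and 11.23, 11.28, 10.86 and 11.28 in treated rats 1 to 4. It rose 15.1-fold (3.91 ± 0.22, adjusted p = 9.26e-06), with 2 of 4 controls above background, and no member of the 41 reached that size. Wee1, the kinase that inhibits Cdk1, measured 5.85, 6.28, 5.75 and 6.22 in controls 1 to 4 and 8.94, 9.46, 8.54 and 8.12 in treated rats 1 to 4 and was at least 2.74-fold higher (adjusted p = 0.000319). So the transcript of this inhibitor and the transcript of its target Cdk1 were both higher in treated rats. Spc25, which joins Ndc80 and Nuf2 in their complex, rose 5.93-fold (2.57 ± 0.35, adjusted p = 0.00127, 1 of 4 controls above background). Ccnb1, cyclin B1, the partner of Cdk1, measured 8.22, 8.64, 7.09 and 9.08 in controls 1 to 4 and 10.49, 10.32, 10.27 and 10.27 in treated rats 1 to 4, with no overlap between the groups.

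The machinery around these genes was counted as well. Of 22 subunits of the anaphase-promoting complex and of cohesin 7 rose (31.8%) and 1 fell, with a median of 0.70. Over all genes these shares were 9.67% and 5.24%. Anapc4 rose by 1.24 ± 0.33 (adjusted p = 0.034), Fzr1, the activator that replaces Cdc20 late in mitosis, by 1.22 ± 0.21 (adjusted p = 0.00419) and Pds5a, a cohesin regulator, by 1.16 ± 0.26 (adjusted p = 0.0146), while Anapc11, the catalytic subunit, fell (-1.07 ± 0.27, adjusted p = 0.0246). Of the 17 alternatives, Anapc4 lost its call in 7 (without control 2 or any treated rat, among others; differences down to 0.72), Anapc11 in 4 (without control 1 or treated rat 2 or 3) and Pds5a in 3 (without treated rat 2). The difference between this list and the 41 genes was not tested. Of 34 DNA replication genes 14 rose and 0 fell (without adjustment, 19 and 1), with a median of 0.80. Tyms, thymidylate synthase, led them at 2.50 ± 0.19 (adjusted p = 6.34e-05), followed by Mcm3, a helicase subunit, at 1.65 ± 0.24 (adjusted p = 0.00164), and Cdc45, its cofactor, was at least 1.08-fold higher (adjusted p = 0.00295).

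Among 17 measured transcription factors of the cell cycle 3 rose (17.6%) and 1 fell, where 9.67% of all genes rose and 5.24% fell. Mybl2, or B-Myb, which turns the MuvB complex into an activator of mitotic genes, measured 5.21, 6.24, 5.40 and 5.61 in controls 1 to 4 and 8.08, 8.48, 8.21 and 8.0 in treated rats 1 to 4. It was under background in all controls and at least 1.85-fold higher (adjusted p = 0.00021). Mybl1, its relative A-Myb, measured 5.87, 5.40, 5.55 and 5.88 in controls 1 to 4 and 9.22, 9.87, 9.29 and 9.27 in treated rats 1 to 4 and was at least 4.29-fold higher (adjusted p = 1.26e-05). Rbl1 and Rbl2 encode p107 and p130, the pocket proteins of the repressing DREAM complex, and neither call was stable. Rbl1 measured 7.47, 6.74, 5.76 and 7.02 in controls 1 to 4 and 8.27, 8.82, 8.65 and 7.19 in treated rats 1 to 4, with overlapping groups, and rose by 1.49 ± 0.43 (adjusted p = 0.044). That call was lost in 10 of 17 alternatives, among them every scaling and the omission of control 2, 3 or 4 or of treated rat 1, 2 or 3 (differences over all alternatives 1.16 to 1.83, highest adjusted p = 0.137). Rbl2, typical of resting cells, measured 10.64, 10.23, 9.45 and 10.51 in controls 1 to 4 and 9.22, 9.30, 9.44 and 8.50 in treated rats 1 to 4 and fell (-1.10 ± 0.31, adjusted p = 0.0396). Its call was lost in 8 of 17, among them the omission of control 1, 2 or 4 or of any treated rat (-1.35 to -0.89, highest adjusted p = 0.107). Foxm1, the forkhead factor of late mitotic genes, measured 6.32, 7.03, 6.99 and 6.25 in controls 1 to 4 and 7.38, 7.53, 7.58 and 6.99 in treated rats 1 to 4, with all controls under background, and did not pass (adjusted p = 0.082). It passed in 3 of 17 alternatives (lowest adjusted p = 0.0067). E2f1, a factor of G1/S genes, also had all controls under background, with measured means of 6.46 ± 0.30 in controls and 7.22 ± 0.45 in treated rats (SD, n = 4), and did not pass (adjusted p = 0.0838). It passed in 3 of the 16 alternatives that tested it (lowest adjusted p = 0.0223).

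**Figure D5:**
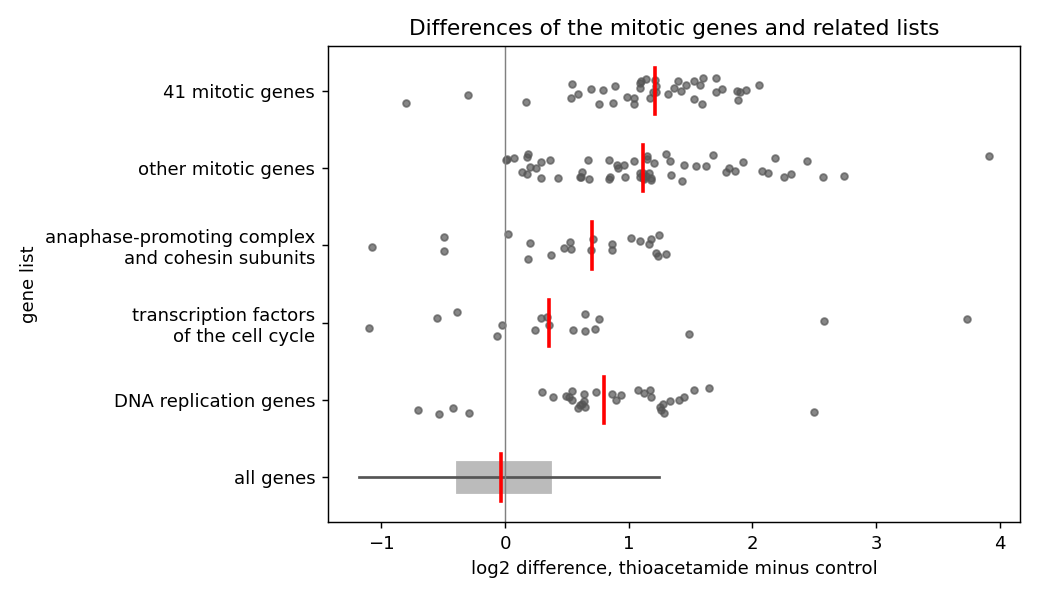
Log2 difference (thioacetamide minus control) of each gene in 5 lists, with red bars at the medians; the last line shows all genes, with the box marking the quartiles and the line the 5th to the 95th percentile. The medians are 1.21 for the 41 mitotic genes, 1.12, 0.70, 0.35 and 0.80 for the lists below them, and -0.04 for all genes.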

How the data were processed

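The authors deposited 1 log2 expression value per probe set and NimbleGen 1-colour (Cy3) array, made with RMA per the submitters' processing notes; the sources used here give neither its version nor the annotation build, and raw intensities were not used. Of 26208 probe sets, 11 had no value in control replicate 4, and none of these is a member. The series table and the sample files held identical values (largest difference 0). A control set of 37 probes was left out. Names came from gene identifiers (20543 matched) or accessions (31) through a RefSeq table of GRCr8, and otherwise from the files (5634). Thioacetamide was compared with control in limma 3.58.1 (lmFit, eBayes, R 4.3.3), with 2-sided p-values adjusted by Benjamini-Hochberg across the 26208 probe sets, a threshold of 0.05 and no replicate block; errors on differences are standard errors of the fit. Arrays carry no depth, so their number limits precision. All members were named, and of the other lists the leading changed genes with Foxm1, Mybl2, E2f1, Ccnb1 and Cdc25a. The members, lists, tests and the background level were chosen with earlier results of these data known. The filter on dim probe sets kept those above background on at least 4 arrays. Promoter windows came from RefSeq (GRCr8), 1 for each gene identifier.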

Additional observations from a re-analysis of the deposited data

Results flagged for a closer look

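In 1 of 82 groups of 4 rats (2 for each member) a single array stood apart from the other 3 by Dixon's criterion; chance alone flags about 1 in 20 groups. It was Ect2 in control replicate 3, at 5.27, with the other controls between 6.31 and 6.52 and a gap of 0.83 of the range. All 4 values were under background.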

How the results depend on the processing

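The labels do not say whether the replicate numbers mark pairs. Deviations of same-numbered rats from their group means correlated at 0.246, -0.098, -0.126 and -0.431 across probe sets. Between rats of different numbers the correlations ran from -0.377 to 0.431, so these values do not settle the question. With the replicate number as a block, 2163 probe sets changed in place of 3827, 21 members rose in place of 27, and 2 of the anaphase-promoting complex and cohesin subunits and 8 of the DNA replication genes rose in place of 7 and 14. The filter on dim probe sets left 38 of 41 members, 31 of them higher, and gave 11 anaphase-promoting complex and cohesin subunits. Of the members, 7 were above background in all treated rats and no control, so they passed this filter through the treated rats alone. The count under the filter is therefore a description and not separate support. Array weights gave 5 transcription factors in place of 3, and so did leaving out control replicates 2 and 3 and thioacetamide replicate 4, under which 4139 probe sets changed. With 1 array left out, 2166 to 3924 probe sets changed (2466 without thioacetamide replicate 1 and 2166 without thioacetamide replicate 2), 21 to 29 members, 24 to 34 other mitotic genes, 3 to 8 anaphase-promoting complex and cohesin subunits (3 without thioacetamide replicate 2), 2 to 4 transcription factors and 5 to 18 replication genes rose (9 without control replicate 1 or 2, and 8, 5 and 7 without thioacetamide replicates 1, 2 and 3). The difference of Ncapd2 turned to -0.079 after cyclic loess. The count of members stayed between 21 and 34 over all 17 alternatives, with 0 lower in each. The causes were not tested.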

Other observations

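The motif held by most of the mitotic promoters was also counted across the array. Of 2394 measured genes with TTTGAA in their RefSeq window 9.77% rose and 4.43% fell, against 12.5% and 5.50% of 12717 genes without it. With both TTTGAA and CCAAT, 11.4% of 1002 genes rose. These shares are descriptions of the windows and were not tested.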
